A study of Mus musculus with 24 samples.

Results

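The step from WT neural progenitor cells (NPCs) to replated mature neurons was read from 6 of the 24 samples of a poly(A)+ RNA-seq series, namely the 3 WT neuron samples and the 3 WT NPC samples. Both groups carry the wild-type allele of Polr2a, which encodes the catalytic subunit of RNA polymerase II, on both chromosomes, and come from an E14-derived mouse embryonic stem cell (ESC) line. The NPCs were adherent monolayer cultures harvested at day 7 in N2B27 medium on gelatin. For the neurons, day 7 cultures were replated on poly-L-ornithine and laminin and kept for 14 further days in N2B27 to which cAMP (0.25 mM) and ascorbic acid (0.2 mM) were added, so that the NPC harvest stands directly before the replating. Neither group was selected for a surface marker, so each sample holds all cell types of its cultures. The other 18 samples are WT ESCs, WT cells selected for PSA-NCAM, and the same 4 stages of a slow/slow line, in which both Polr2a alleles carry a knocked-in substitution that slows the polymerase. They entered the fit for its estimate of spread and are named only where a WT value needs them. The study's methods give 3 independent differentiation experiments, all from the same parental line, so p-values measure the spread between these samples and not between lines or animals.

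Neural induction without serum lets ESCs leave pluripotency, whose factors Pou5f1, Nanog and Sox2 hold the undifferentiated state, and adopt a progenitor state kept by Sox2, Pax6, Nestin and Notch signalling through Hes5. Proneural factors such as Neurog2 then take progenitors out of the cell cycle, and the young neuron switches on a neuronal tubulin cytoskeleton, axon guidance receptors, synaptic vesicle proteins and ion channels. Rest, a repressor that silences neuronal genes elsewhere, and Ptbp1, a repressor of neuronal exons, are known to decline along this path.

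Levels are given as CPM, the counts of a gene scaled to the total of its library, after TMM scaling, which matches libraries on the bulk of their genes, and a gene was called at an FDR under 0.05 in edgeR's quasi-likelihood test. Log2 changes are neurons against NPCs and carry their standard error, and means carry the SD of n = 3. The NPC samples held 46023676, 63535348 and 64208791 counts and the neuron samples 65654772, 61940093 and 104466886, and the 10 most abundant genes took between 7.81% and 8.07% of an NPC sample and between 3.89% and 4.5% of a neuron sample. Of 16627 genes tested, 13336 were called (80.2%), 6876 higher in neurons (41.4%) and 6460 lower (38.9%), with a median log2 change of 0.038 over all genes. The 3 neuron values lay wholly above or below the 3 NPC values for 14842 genes (89.3%). Changes of at least 2-fold were called for 4457 genes upwards (26.8%) and 4303 downwards (25.9%), and of at least 4-fold for 2592 genes upwards and 2491 downwards. Since most genes were called, the counts of each list below stand against 41.4% higher and 38.9% lower in all genes. In these bulk samples fewer cells of a type and less RNA per cell cannot be told apart.

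**Figure D1:**
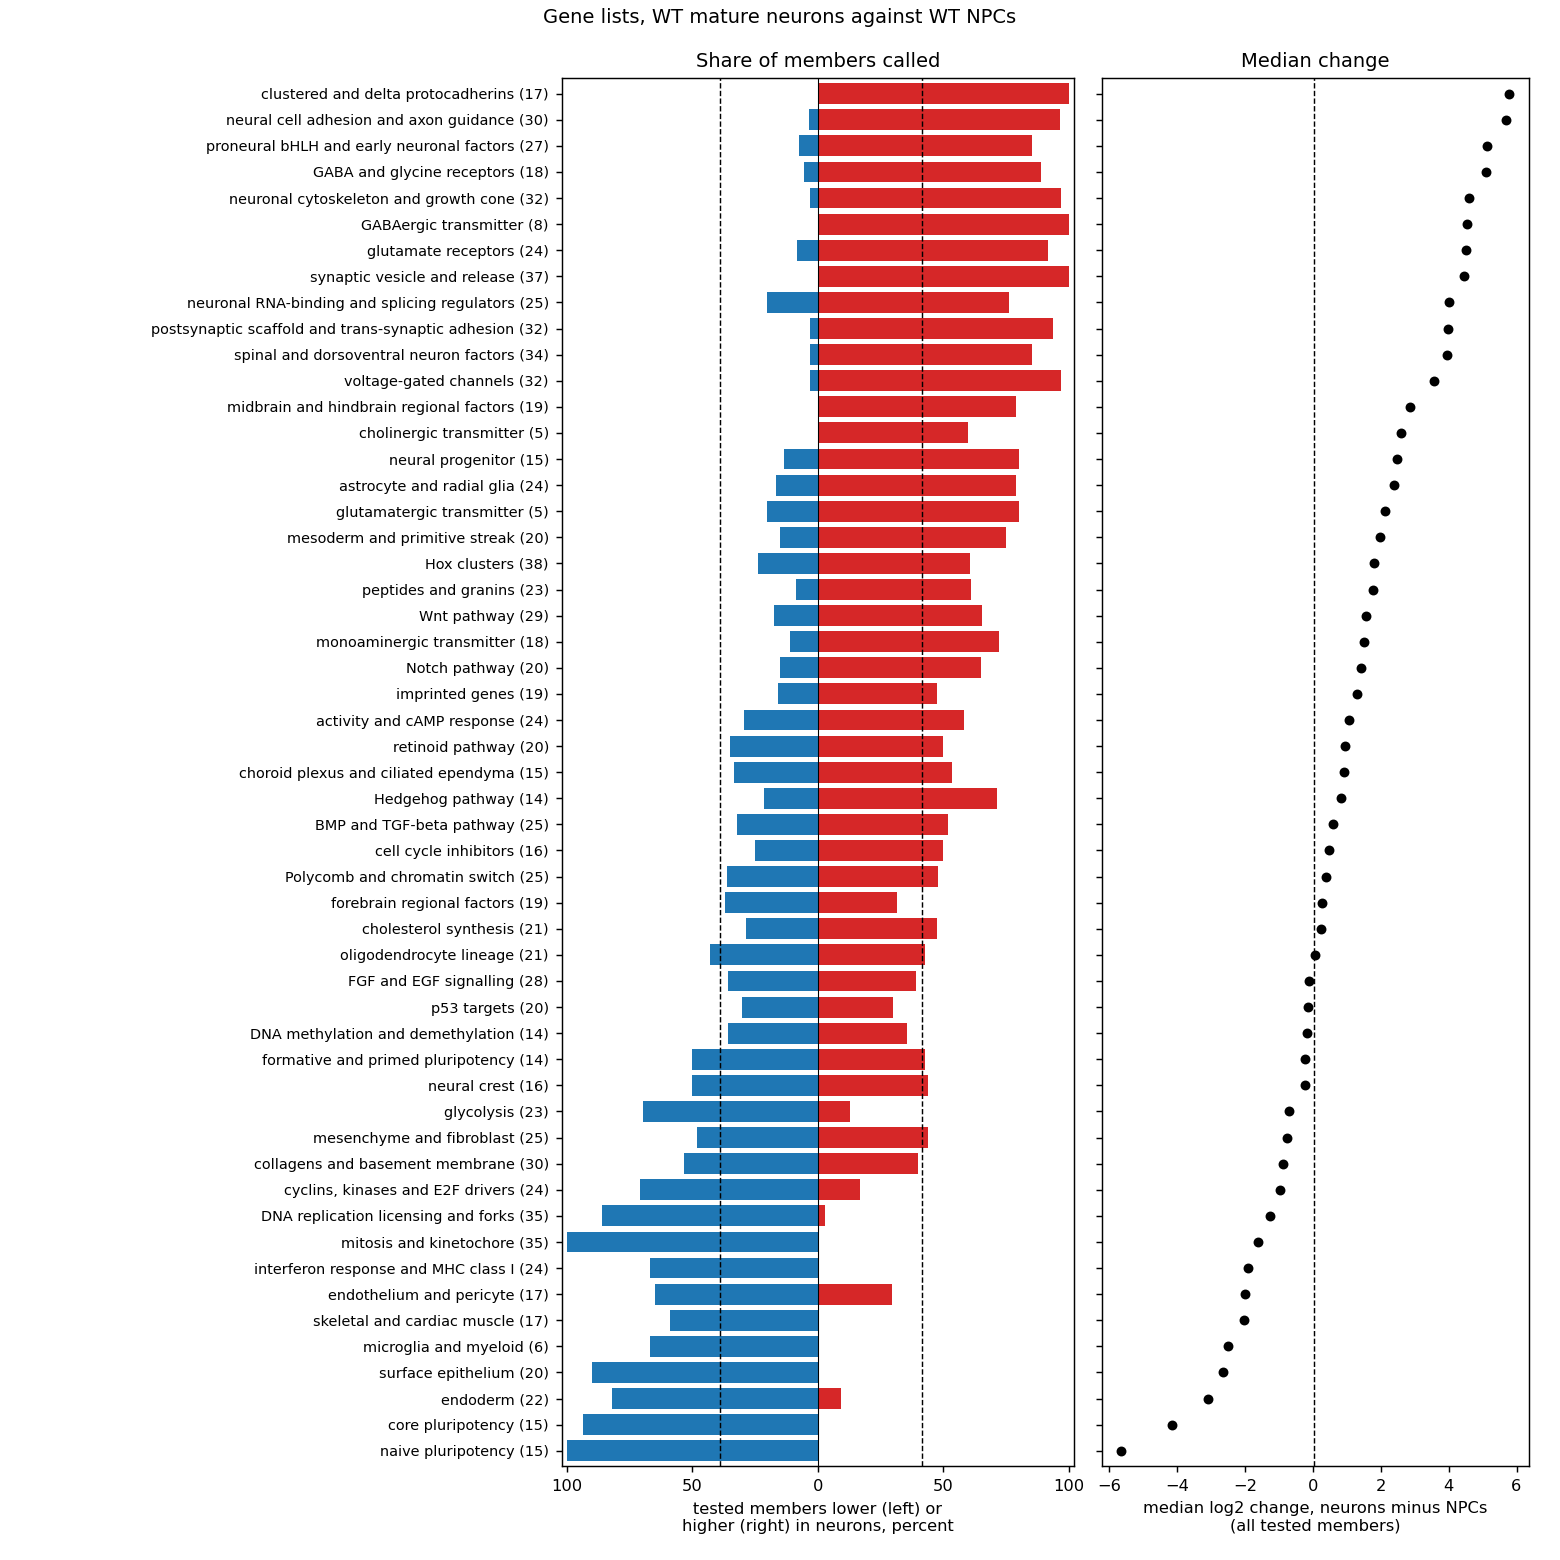
For each of the 53 gene lists, bars give the percentage of tested members called lower (left) and higher (right) in neurons, and the right panel the median log2 change; dashed lines mark the percentages (38.9 and 41.4) and the median of all 16627 genes. Synaptic vesicle genes lie at a median of 4.46 and naive pluripotency genes at -5.64.

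The labels of both groups were first set against defining markers. All 11 neuronal markers, from the microtubule proteins Tubb3 and Map2 to the nuclear splicing factor Rbfox3, rose in the neuron samples. Of the progenitor markers, Sox2 was present in the NPC samples at a mean of 241 CPM, below the 385 CPM of WT ESCs. Nestin and Pax6 were lower in the NPC samples than in the neuron samples, and Hes5 was close to 0. Nestin and Pax6 still stood above WT ESCs, with NPC means of 33.1 against 18.7 CPM and 4.30 against 0.187 CPM. Sox1, a further progenitor marker, could not be matched to the counts. The study itself reported NPCs positive for Sox1, Pax6 and Nestin, by immunofluorescence staining or RT-qPCR. The NPC samples also still carried the pluripotency factor Pou5f1 at a mean of 639 CPM and Nanog at 384 CPM, against 1760.3 and 1039 CPM in WT ESCs, together with basement membrane and endoderm genes at levels above those of the ESCs. Whether these RNAs came from separate cells or from the progenitors themselves cannot be told apart in bulk samples. The neurons are labelled post-mitotic, and their samples held 71.6 CPM of the proliferation marker Mki67 and 215 CPM of Top2a, a topoisomerase of dividing cells.

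**Figure D2:**
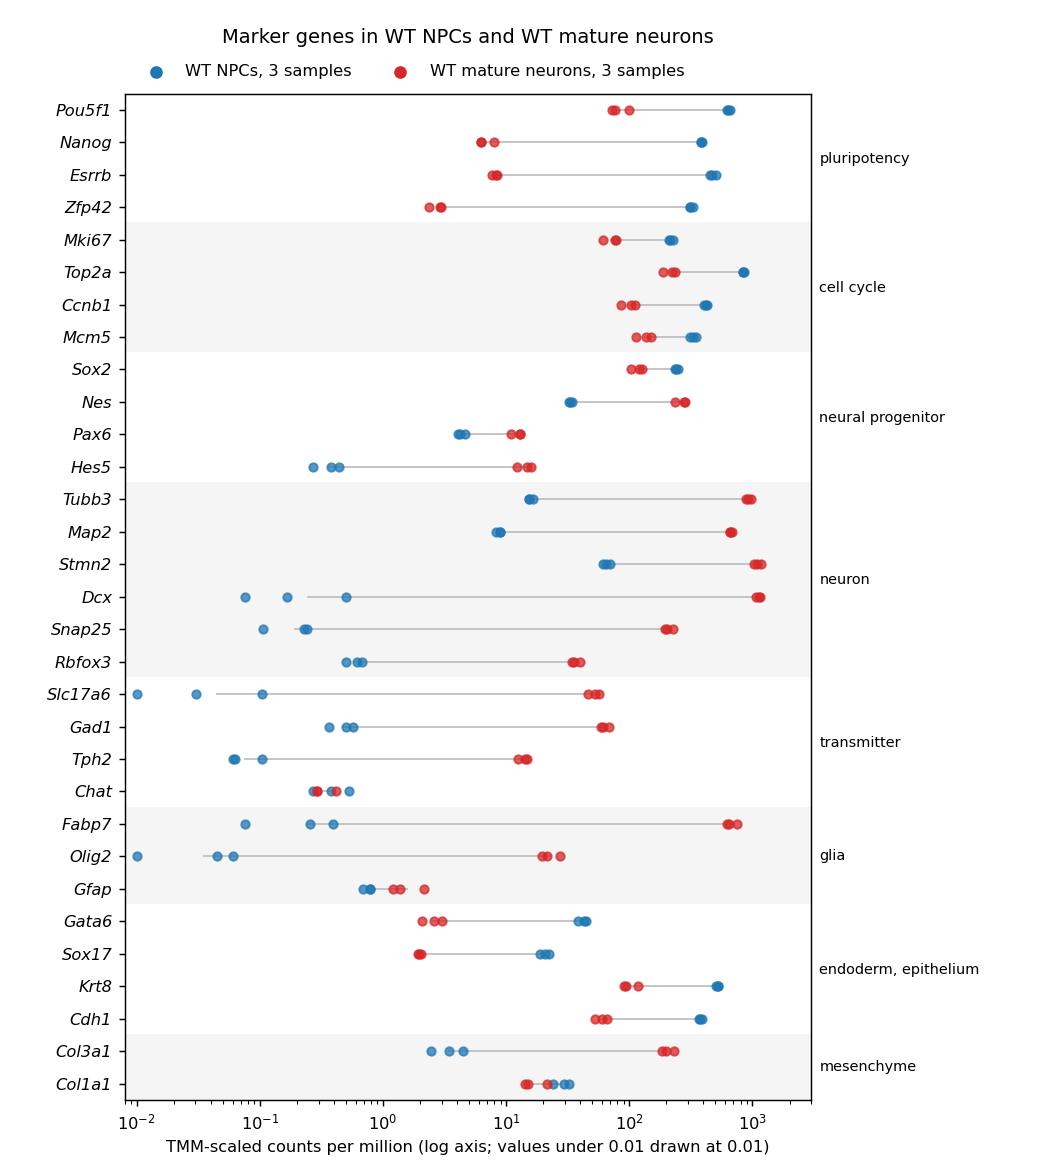
Level of marker genes in each of the 3 WT NPC and 3 WT neuron samples, in TMM-scaled CPM on a log axis, grouped by the cell type or process they mark, with values under 0.01 drawn at 0.01. Dcx and Snap25 lie below 1 CPM in every NPC sample and above 100 CPM in every neuron sample, and Nanog goes from a mean of 384 to 6.82 CPM.

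Of the 53 lists, those of naive and core pluripotency had the lowest medians. All 15 naive pluripotency genes fell, with a median log2 change of -5.64, and their summed level went from 2270, 2330 and 2230 CPM in the NPC samples to 46.7, 50.7 and 47.7 CPM in the neuron samples. Esrrb, a nuclear receptor of the naive state, had 474, 506 and 454 CPM in the 3 NPC samples and 8.49, 8.31 and 7.70 CPM in the 3 neuron samples. Zfp42, a zinc finger protein known as Rex1, had 331, 309 and 309 CPM in the 3 NPC samples and 2.35, 2.90 and 2.95 CPM in the 3 neuron samples. All 3 neuron samples were far below all 3 NPC samples for both genes (log2 change -5.87 ± 0.16, FDR 2.2e-17 for Esrrb and log2 change -6.85 ± 0.16, FDR 6.4e-18 for Zfp42). Among the 15 core pluripotency genes 14 fell and none rose, with a median of -4.16, and the exception was Lin28a, a repressor of let-7 maturation, with 334 ± 6.29 CPM in NPCs and 229 ± 27.3 CPM in neurons (log2 change -0.54 ± 0.25, FDR 0.0527). Nanog, the homeodomain factor of self-renewal, had 387, 380.4 and 386 CPM in the 3 NPC samples and 6.28, 7.93 and 6.25 CPM in the 3 neuron samples (log2 change -5.82 ± 0.18, FDR 1.18e-16). Pou5f1, which encodes Oct4, had 659.7, 619.8 and 637 CPM in the 3 NPC samples and 76.6, 99.9 and 72.0 CPM in the 3 neuron samples (log2 change -2.95 ± 0.24, FDR 4.18e-10). Both fell in every neuron sample, and Pou5f1 remained well above the floor while Nanog was nearly gone. Utf1, a chromatin factor of pluripotent cells, went from 358 ± 21.9 to 6.81 ± 1.17 CPM, and Dnmt3l, the cofactor of de novo DNA methylation, from 298 ± 3.89 to 3.36 ± 0.995 CPM. Genes of the formative and primed states, which follow the naive state, were divided, with 6 of 14 higher, 7 lower and a median of -0.22.

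The 12 largest falls among genes that reached 5 CPM were Stra8, Rbm44, Tcl1, Gm7325, Dmrtc2, Rsl24d1, Dppa5a, Ooep, Dmrt1, Gm949, Lrrc31 and Asb9. Stra8 (chromosome 6, 34920163-34939344, GRCm38, plus strand), the retinoid-induced gate to meiosis, had 141, 133 and 140.0 CPM in the 3 NPC samples and 0.0767, 0.112 and 0.0866 CPM in the 3 neuron samples (log2 change -10.54 ± 0.56, FDR 4.96e-13). Its NPC samples were close to each other and its neuron samples all near 0. Dppa5a, an RNA-binding protein of pluripotent cells, went from 177 ± 19.5 to 0.491 ± 0.0726 CPM, Ooep, an oocyte protein, from 47.8 ± 3.69 to 0.144 ± 0.0140 CPM, and Dmrt1, a testis factor, from 115 ± 2.67 to 0.389 ± 0.129 CPM. All 4 were already present in WT ESCs, at means of 132 CPM for Stra8, 204 for Dppa5a, 66.8 for Ooep and 40.5 for Dmrt1. Rbm44, Dmrtc2, Rsl24d1 and Asb9 had 3 counts or fewer in every neuron sample and were at least 366-fold, 174-fold, 214-fold and 128-fold lower there, taking 3 counts per library as the floor. Rsl24d1 overlaps another gene model on the same strand. In the other direction the 12 largest rises were Gria2, Ncam2, Csmd1, Slitrk1, Otp, Lingo2, Dcx, Pcdh11x, Pcdhb9, Lrrn3, Vip and Hs3st2, of which 11 had 3 counts or fewer in each NPC sample. Slitrk1 and Lingo2, adhesion proteins of synapses, were at least 430.4-fold and 264-fold higher, and Hs3st2, an enzyme of heparan sulfate, at least 497-fold. Of these 24 genes, 21 moved by a different amount in slow/slow cells at the same step, tested as the difference of the steps (FDR under 0.05), against 55.1% of all genes tested. The 24 were chosen for large WT changes, which enter that difference, so the count is favoured by the choice and is not set against the background. Slitrk1 no longer passed under upper-quartile scaling (FDR 0.0571) or with the replicate block (FDR 0.0579).

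Cell cycle genes fell as a body, and less steeply than pluripotency genes. All 35 genes of mitosis and the kinetochore were lower in neurons, with a median log2 change of -1.61, as were 30 of 35 replication genes (median -1.27) and 17 of 24 cyclins, kinases and E2F drivers (median -0.96), against 38.9% of all genes. Top2a had 835, 835 and 858 CPM in the 3 NPC samples and 187, 235 and 222 CPM in the 3 neuron samples (log2 change -1.97 ± 0.23, FDR 1.53e-07). Mki67 had 209, 214 and 226 CPM in the 3 NPC samples and 60.8, 78 and 76.0 CPM in the 3 neuron samples (log2 change -1.60 ± 0.17, FDR 2.34e-08). For both genes the neuron samples were all below the NPC samples, yet well above 0. Ccnb1, the cyclin that starts mitosis, had 429, 402 and 416 CPM in the 3 NPC samples and 85.6, 112 and 103 CPM in the 3 neuron samples (log2 change -2.05 ± 0.16, FDR 2.17e-10), and Anln, a scaffold of the cleavage furrow, went from 325 ± 2.57 to 39.6 ± 5.06 CPM, the steepest change of the mitosis list. Mcm5, a subunit of the replicative helicase, had 347, 328 and 314 CPM in the 3 NPC samples and 113, 149.8 and 137 CPM in the 3 neuron samples (log2 change -1.31 ± 0.23, FDR 2.26e-05), and Orc1, the largest subunit of the origin recognition complex, went from 85.7 ± 0.338 to 12.2 ± 0.746 CPM. Of the replication list Rfc3 alone was called higher, at log2 change 0.34 ± 0.15, FDR 0.0494, a call that was lost under most alternatives, and 4 members, Fen1, Rrm2 and Tyms among them, did not pass. The D-type cyclins Ccnd1 and Ccnd2 went the other way, and Ccnd3 fell. Ccnd2, a cyclin of G1, had 15.6, 17.9 and 14.3 CPM in the 3 NPC samples and 419, 496 and 523 CPM in the 3 neuron samples (log2 change 4.91 ± 0.13, FDR 1.64e-17), Ccnd1 went from 30.8 ± 1.64 to 215 ± 32.3 CPM, and Ccne2 and Myc were also called higher. Among the 16 inhibitors tested 8 rose and 4 fell. Gadd45a, a stress-induced brake, fell from 99.6 ± 3.99 to 9.09 ± 0.554 CPM, and Cdkn1b, which encodes the inhibitor p27, went from 52.5 ± 2.90 to 73.4 ± 2.75 CPM (log2 change 0.48 ± 0.13, FDR 0.00209).

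RefSeq promoters (GRCm38.p6, 250 bases before to 50 after the start) were searched for elements that these cell cycle lists are known for, and a stretch of 60 bases is given for 5 genes. E2F factors, which drive genes of S phase, were searched as TTTCGCGC, TTTGGCGC and TTTCCCGC on both strands, the cell cycle homology region (CHR) of G2 and M phase genes as TTTGAA, and the CCAAT box, bound by NF-Y, as CCAAT. Each sequence reads 5′ to 3′ on the gene's strand, and the capitals mark the match nearest to the start among the bases before it, an E2F match in Mcm5 and Cdc6 and a CHR match in Cdk1, Mki67 and Top2a. The windows are chr8:75109334-75109393 (plus strand) for Mcm5, chr11:98907987-98908046 (plus) for Cdc6, chr10:69352913-69352972 (minus) for Cdk1, chr7:135716445-135716504 (minus) for Mki67 and chr11:99024190-99024249 (minus) for Top2a.
Mcm5: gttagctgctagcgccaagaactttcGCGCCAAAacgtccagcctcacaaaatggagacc
Cdc6: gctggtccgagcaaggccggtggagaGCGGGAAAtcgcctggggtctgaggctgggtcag
Cdk1: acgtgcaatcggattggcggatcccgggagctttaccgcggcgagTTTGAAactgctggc
Mki67: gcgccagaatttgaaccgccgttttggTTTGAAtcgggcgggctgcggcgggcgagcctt
Top2a: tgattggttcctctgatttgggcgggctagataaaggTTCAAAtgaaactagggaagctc

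Of 32851 promoter windows in the reference, 1.84% held an E2F match, 17.9% a CHR match and 37.4% a CCAAT box. In the replication list, 29 of 35 genes had a window, and 13 of their 34 windows (38.2%) held an E2F match, 4 (11.8%) a CHR match and 20 (58.8%) a CCAAT box. The mitosis list, with 29 of 35 genes and 31 windows, held an E2F match in 2 (6.45%), a CHR match in 24 (77.4%) and a CCAAT box in 23 (74.2%). The cyclin list, with 17 of 24 genes and 20 windows, lay between them at 7 (35.0%), 7 (35.0%) and 13 (65.0%). These are matches of letters, not measured binding, and no test was made on them.

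Genes of the neural progenitor were gained at this step. Of 15 tested, 12 rose, Sox2 and Hes1 fell and the median log2 change was 2.47. Nes, the intermediate filament Nestin, had 34.1, 32.9 and 32.3 CPM in the 3 NPC samples and 236, 278 and 283 CPM in the 3 neuron samples (log2 change 3.00 ± 0.14, FDR 6.38e-14). Hes5, the Notch effector of progenitors, had 0.270, 0.438 and 0.375 CPM in the 3 NPC samples and 12.1, 14.9 and 15.9 CPM in the 3 neuron samples (log2 change 5.28 ± 0.29, FDR 8.99e-13). Pax6, a factor of dorsal progenitors, had 4.18, 4.07 and 4.63 CPM in the 3 NPC samples and 11.0, 12.8 and 13.1 CPM in the 3 neuron samples (log2 change 1.52 ± 0.24, FDR 9.27e-06). In all 3 genes the neuron samples lay above every NPC sample, with Nes already at over 30 CPM in NPCs. Sox2, which serves both pluripotent and neural progenitor cells, had 250.1, 235 and 238 CPM in the 3 NPC samples and 103, 119 and 126 CPM in the 3 neuron samples and so fell (log2 change -1.05 ± 0.09, FDR 2.01e-09). Hes1, another Notch effector, fell only slightly (log2 change -0.44 ± 0.20, FDR 0.0471) and lost its call in 5 of 6 fits that each left out a sample, all but that without neuron replicate 3. Notch pathway genes were 13 higher, 3 lower and 4 not called of 20 (median 1.43). The ligand Dll1 rose from 19 ± 0.399 to 64.5 ± 0.452 CPM and the ligand Dll3 from 5.24 ± 0.117 to 28.4 ± 0.788 CPM. The summed level of the list did not rise, at 952, 1050 and 976 CPM in the NPC samples and 828, 903 and 923 CPM in the neuron samples.

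Proneural and early neuronal transcription factors rose by a median of 5.14 on the log2 scale, or 4.92 with genes at the count floor set at their bound, with 23 of 27 higher and 2 lower. Neurog2, a proneural factor of many neuron types, had 3 counts or fewer in each NPC sample and was at least 58.3-fold higher, at 2.97 CPM. Scrt2, a neuronal repressor of the Snail family, went from 0.215 ± 0.0524 to 98.1 ± 7.24 CPM, and Myt1l, a repressor of non-neuronal fates, from 0.0252 ± 0.0436 to 73.7 ± 5.76 CPM (log2 change 11.28 ± 0.51, FDR 4.06e-14). Neurod1 and Eomes did not pass, and Neurog3 and Atoh1 fell.

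Genes of the neuronal cytoskeleton rose together. Of 32 genes 31 rose, with a median log2 change of 4.59. Dcx (chromosome X, 143855842-143933311, GRCm38, minus strand), a microtubule-binding protein of migrating neurons, had 0.499, 0.0755 and 0.165 CPM in the 3 NPC samples and 1139, 1150.5 and 1063 CPM in the 3 neuron samples (log2 change 12.27 ± 0.79, FDR 1.03e-11). All 3 neuron samples were above 1000 CPM, while the NPC samples were below 1 CPM. Stmn2, a tubulin-destabilising protein of growth cones, had 69.2, 61.4 and 64.1 CPM in the 3 NPC samples and 1182, 1081 and 1034 CPM in the 3 neuron samples (log2 change 4.08 ± 0.17, FDR 1.49e-14), so its NPC samples were already above 60 CPM. Map2, the dendritic microtubule protein, had 8.97, 8.21 and 8.83 CPM in the 3 NPC samples and 684, 662 and 651 CPM in the 3 neuron samples (log2 change 6.26 ± 0.28, FDR 3.54e-14). Gap43, a growth cone protein, went from 4.16 ± 0.462 to 805 ± 56.4 CPM, and Tubb3, neuronal beta-tubulin, from 15.8 ± 0.721 to 928 ± 46.8 CPM, where the gene overlaps a longer gene model on the same strand and its reads may be shared. Per transcript length, as the authors' mean RPKM, Stmn2 stood at 591, Tubb3 at 564, Dcx at 124 and Map2 at 135 in neurons. Thy1, a surface glycoprotein of mature neurons, went against the list and fell from 6.73 ± 0.351 to 2.47 ± 0.230 CPM (log2 change -1.45 ± 0.20, FDR 1.5e-06).

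Adhesion and guidance genes rose in 29 of 30 cases, with a median of 5.68, or 5.53 with genes at the floor set at their bound. Cadherins exchanged. Cdh1, E-cadherin of epithelia, had 366, 388 and 375 CPM in the 3 NPC samples and 53.1, 66.1 and 60.3 CPM in the 3 neuron samples (log2 change -2.65 ± 0.32, FDR 2.37e-07). Cdh2, N-cadherin of neural tissue, had 16.0, 13.3 and 13.8 CPM in the 3 NPC samples and 489.6, 504 and 515 CPM in the 3 neuron samples (log2 change 5.13 ± 0.41, FDR 3.11e-10). The first thus fell in every neuron sample and the latter rose, with no overlap of samples. Ncam2 and Lrrn3, cell surface proteins of neurons, had 3 counts or fewer in each NPC sample and rose at least 541-fold and 1732-fold. Protocadherins and their relatives, which give neurons adhesive identity, were higher in 17 of 17 cases (median 5.79). Pcdh11x, on the X chromosome, was at least 667-fold higher, at 33.9 CPM in neurons.

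Presynaptic genes were called higher without exception, 37 of the 37 tested, against 41.4% of all genes, with a median log2 change of 4.46. Snap25, a SNARE protein of vesicle fusion, had 0.229, 0.106 and 0.240 CPM in the 3 NPC samples and 228, 203 and 194 CPM in the 3 neuron samples (log2 change 10.10 ± 0.40, FDR 6.67e-15). Syt1, the calcium sensor of release, went from 1.57 ± 0.161 to 173 ± 7.50 CPM, although a predicted gene overlaps it. Syn1, which tethers vesicles, went from 11.2 ± 1.07 to 221 ± 13.4 CPM (log2 change 4.30 ± 0.19, FDR 2.54e-14), and Syp, synaptophysin, from 3.31 ± 0.216 to 285 ± 23.4 CPM (log2 change 6.43 ± 0.29, FDR 5.11e-14). Postsynaptic scaffold and trans-synaptic adhesion genes rose in 30 of 32 cases with a median of 3.99. Dlg4, the scaffold PSD-95, went from 18.5 ± 0.403 to 240.1 ± 7.52 CPM (log2 change 3.69 ± 0.20, FDR 7.24e-13). The list held markers of mature forebrain synapses that did not follow. Camk2a, a kinase of plasticity, had 14.7 ± 0.721 CPM in NPCs and 16.4 ± 1.84 CPM in neurons (log2 change 0.16 ± 0.39, FDR 0.72), and Nrgn, neurogranin, fell from 3.45 ± 0.421 to 1.36 ± 0.267 CPM.

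Receptors and channels of excitable cells appeared from low levels. Of 24 glutamate receptor genes 22 rose (median 4.5). Gria2 (chromosome 3, 80681450-80802835, GRCm38, minus strand), the AMPA receptor subunit that sets calcium permeability, had no count in any NPC sample and 118, 98.9 and 99.9 CPM in the 3 neuron samples, at least 2076-fold higher at a floor of 3 counts per library. Grin1, the obligate NMDA receptor subunit, went from 3.28 ± 0.176 to 79.8 ± 6.52 CPM (log2 change 4.61 ± 0.24, FDR 3.07e-13), Grin2b from 0.127 ± 0.00812 to 10.2 ± 0.433 CPM, and Grin2c and Grin2d fell. GABA and glycine receptor genes rose in 16 of 18 cases (median 5.09), among them Glra2, an embryonic glycine receptor subunit, at least 321-fold to 16.3 CPM. Of 32 voltage-gated channel genes 31 rose (median 3.58), such as Scn2a1, a sodium channel of axons, from 0.634 ± 0.0261 to 80.2 ± 5.46 CPM, and 1 fell.

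Transmitter identity was mixed, with GABAergic, glutamatergic and serotonergic genes in the same samples. Slc17a6, the vesicular glutamate transporter VGLUT2 of brainstem, thalamus and spinal cord, had 0.104, 0.0302 and 0 CPM in the 3 NPC samples and 57.2, 46.5 and 52.5 CPM in the 3 neuron samples (log2 change 10.31 ± 0.39, FDR 2.5e-14). Its cortical relative Slc17a7 (VGLUT1) went the other way, from 6.50 ± 0.620 to 0.344 ± 0.0579 CPM (log2 change -4.22 ± 0.19, FDR 4.52e-14). Gad1, which makes GABA, had 0.499, 0.362 and 0.570 CPM in the 3 NPC samples and 67.8, 61.4 and 58.5 CPM in the 3 neuron samples (log2 change 7.03 ± 0.48, FDR 2.71e-11). For Slc17a6 and Gad1 every neuron sample was above 45 CPM and every NPC sample below 1 CPM. All 8 GABAergic genes rose, Slc32a1, the vesicular GABA transporter, from 0.780 ± 0.105 to 5.10 ± 0.166 CPM. In the monoaminergic list 13 of 18 rose and 2 fell. Tph2, the neuronal enzyme of serotonin synthesis, had 0.0624, 0.0604 and 0.105 CPM in the 3 NPC samples and 14.2, 14.9 and 12.4 CPM in the 3 neuron samples (log2 change 7.45 ± 0.36, FDR 1.29e-13). Slc6a4, the serotonin transporter, went from 0.415 ± 0.0551 to 14.3 ± 0.847 CPM, and Fev, the transcription factor Pet1 of serotonergic neurons, from 0.732 ± 0.0330 to 8.49 ± 0.198 CPM. Slc18a2, the vesicular transporter of monoamines, rose from 1.70 ± 0.116 to 17.8 ± 0.326 CPM (log2 change 3.38 ± 0.15, FDR 3.02e-14). The dopamine markers Th and Slc6a3 did not rise. Th, tyrosine hydroxylase, had 0.310 ± 0.0559 CPM in NPCs and 0.519 ± 0.0430 CPM in neurons (log2 change 0.75 ± 0.46, FDR 0.14), and Slc6a3, the dopamine transporter, fell from 0.496 ± 0.103 to 0.0332 ± 0.0337 CPM. In the cholinergic list 3 of 5 rose, namely Ache, Isl1 and Mnx1, and none fell (median 2.61). Chat, the enzyme of acetylcholine synthesis, was not called, with 0.391 ± 0.128 CPM in NPCs and 0.331 ± 0.0714 CPM in neurons (log2 change -0.23 ± 0.43, FDR 0.625).

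Of 23 peptide and granin genes 14 were higher, 2 lower and 7 not called. Sst, somatostatin, had 3 counts or fewer in each NPC sample and was at least 416-fold higher, at 21.2 CPM. Vip, vasoactive intestinal peptide, was at least 141-fold higher, at 7.20 CPM, and Npy went from 0.0679 ± 0.0133 to 0.225 ± 0.0956 CPM (log2 change 1.77 ± 0.44, FDR 0.00113). The secretory granule protein Scg2 went from 0.0697 ± 0.0372 to 204 ± 14.2 CPM and Chgb from 0.281 ± 0.151 to 282 ± 14.4 CPM. Otp, a homeodomain factor of peptidergic neurons of the hypothalamus, was at least 1106-fold higher, at 56.3 CPM.

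Regional genes of the hindbrain and spinal cord rose, and those of the forebrain did not move together. Of 19 midbrain and hindbrain factors 15 rose and none fell, with a median of 2.87. En1, a factor of the midbrain-hindbrain boundary, went from 0.546 ± 0.161 to 10.6 ± 0.719 CPM (log2 change 4.26 ± 0.35, FDR 4.87e-10), and Egr2, of hindbrain segments, from 0.467 ± 0.0518 to 3.73 ± 0.539 CPM (log2 change 3.00 ± 0.34, FDR 8.5e-08). Of 34 spinal and dorsoventral neuron factors 29 rose and 1 fell (median 3.95), among them Isl1, of motor and sensory neurons, from 0.881 ± 0.0980 to 5.48 ± 0.96 CPM and Lhx1, of spinal interneurons, from 0.515 ± 0.143 to 64.8 ± 4.53 CPM. Forebrain factors were 6 higher, 7 lower and 6 not called of 19. Otx2, of forebrain, midbrain and epiblast, fell from 24.3 ± 1.99 to 3.92 ± 0.597 CPM.

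Hox genes, whose order along each cluster matches position along the body, rose in 23 of 38 cases and fell in 9, with a median of 1.81. Hoxb9, expressed from the thoracic level, went from 2.59 ± 0.0520 to 42.3 ± 4.50 CPM (log2 change 4.03 ± 0.32, FDR 3.62e-10), and Hoxa2, of the hindbrain, from 0.651 ± 0.0866 to 18.2 ± 1.16 CPM (log2 change 4.82 ± 0.36, FDR 9.78e-11). The 23 that rose came from paralogue groups 1 to 9 and 8 of the 9 that fell belonged to groups 11 to 13, a division that was seen in the values and is not tested. The genes of groups 11 to 13 that fell were mostly low already in NPCs, for example Hoxa13 with 0.320 ± 0.00926 CPM in NPCs and 0.0438 ± 0.0307 CPM in neurons and Hoxd13 with 1.72 ± 0.153 CPM in NPCs and 0.353 ± 0.102 CPM in neurons, and Hoxc13 on chromosome 15 fell from 6.59 ± 0.646 to 0.642 ± 0.210 CPM.

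RNA-binding proteins that shape neuronal splicing changed in both directions. Of 25 genes 19 rose and 5 fell (median 4.0). Rest, a repressor of transcription and not a splicing regulator, had 180.0, 179 and 176 CPM in the 3 NPC samples and 39.0, 41.7 and 44.1 CPM in the 3 neuron samples (log2 change -2.10 ± 0.10, FDR 7.42e-14). Ptbp1 had 624, 660.5 and 616 CPM in the 3 NPC samples and 277, 334 and 332 CPM in the 3 neuron samples (log2 change -1.01 ± 0.12, FDR 2.45e-07). Both repressors were lower in every neuron sample than in any NPC sample, and Ptbp1 remained above 270 CPM. Ptbp2, the neural relative of Ptbp1, went from 44.7 ± 0.996 to 221 ± 3.57 CPM (log2 change 2.30 ± 0.08, FDR 1.38e-15), and Srrm4, which includes neuronal microexons and is known to be repressed by Rest, from 1.80 ± 0.241 to 82.4 ± 3.94 CPM (log2 change 5.52 ± 0.31, FDR 1e-12). Rbfox3 went from 0.598 ± 0.0897 to 36.6 ± 3.04 CPM, Nova1 from 7.46 ± 0.264 to 313 ± 11.1 CPM and Elavl4 from 1.00 ± 0.108 to 189 ± 6.67 CPM. Esrp1 and Esrp2, splicing factors of epithelia, and Mbnl2 also fell. In the list of Polycomb and chromatin remodelling genes 12 of 25 rose and 9 fell. Actl6b, the neuronal subunit of the BAF complex, went from 0.204 ± 0.0550 to 82.9 ± 4.97 CPM, and Actl6a, the progenitor subunit it replaces, fell from 114 ± 4.72 to 64.2 ± 5.27 CPM (log2 change -0.83 ± 0.16, FDR 7.56e-05).

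Of 24 astrocyte and radial glia genes 19 rose and 4 fell (median 2.40). Fabp7 (chromosome 10, 57784881-57788450, GRCm38, plus strand), a fatty acid binding protein of radial glia, had 0.395, 0.0755 and 0.255 CPM in the 3 NPC samples and 627, 753 and 648 CPM in the 3 neuron samples (log2 change 11.52 ± 0.76, FDR 1.67e-11). Slc1a3, the glutamate transporter GLAST, went from 10.9 ± 0.486 to 147 ± 15.7 CPM, and Slc1a2, the transporter GLT-1, from 0.612 ± 0.0971 to 118 ± 6.97 CPM. All 3 were above 100 CPM in neurons. Of the defining astrocyte markers, Aldh1l1, a folate enzyme, went from 23.4 ± 0.823 to 31.9 ± 3.57 CPM (log2 change 0.45 ± 0.15, FDR 0.00814). Without neuron replicate 2 its change was 0.34 with an FDR of 0.0659, and under upper-quartile scaling 0.17 with an FDR of 0.281. Aqp4, the water channel of astrocyte endfeet, went from 0.0968 ± 0.0450 to 1.53 ± 0.286 CPM. Gfap, the astrocyte filament, had 0.686, 0.785 and 0.780 CPM in the 3 NPC samples and 1.2, 2.15 and 1.37 CPM in the 3 neuron samples (log2 change 1.06 ± 0.38, FDR 0.0143). Without neuron replicate 2 its change was 0.74 with an FDR of 0.103, and under upper-quartile scaling 0.78 with an FDR of 0.0599. S100b was below the count filter, and Apoe, a lipid carrier of astrocytes and of yolk sac cells, fell from 1985 ± 136 to 54.1 ± 3.00 CPM. For the oligodendrocyte lineage 9 of 21 rose and 9 fell, with a median of 0.07 that turned to -0.21 under upper-quartile scaling. Olig2, a factor of ventral progenitors and oligodendrocytes, had 0, 0.0453 and 0.0600 CPM in the 3 NPC samples and 19.4, 27.5 and 21.5 CPM in the 3 neuron samples (log2 change 9.14 ± 0.61, FDR 2.01e-11). Sox10, which defines committed oligodendrocyte precursors, fell from 3.71 ± 0.381 to 0.935 ± 0.251 CPM, and Mbp, a myelin protein, had 5.32 ± 0.390 CPM in NPCs and 5.58 ± 0.515 CPM in neurons (log2 change 0.07 ± 0.38, FDR 0.872).

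Endoderm and epithelial genes had the lowest medians after pluripotency. Of 22 endoderm genes 18 fell and 2 rose, with a median of -3.10 (-3.03 with the floor), and of 20 surface epithelium genes 18 fell (median -2.64, or -2.50 with the floor). Cubn, an uptake receptor of visceral endoderm, went from 141 ± 23.6 to 1.97 ± 0.399 CPM, Gata4 from 60.9 ± 4.73 to 6.40 ± 0.531 CPM and Gata6, both factors of endoderm, from 41.7 ± 3.15 to 2.56 ± 0.477 CPM. Krt18, a keratin of simple epithelia, went from 550.0 ± 37.8 to 58.2 ± 9.94 CPM, against 9.59 CPM in WT ESCs, below both groups. Cldn4, a tight junction protein, went from 349 ± 11.8 to 11.4 ± 2.12 CPM. Foxa1 and Foxa2, the exceptions, are factors of both endoderm and floor plate. Foxa2 went from 8.68 ± 0.428 to 42.8 ± 4.01 CPM (log2 change 2.30 ± 0.42, FDR 4.36e-05). Of 30 collagen and basement membrane genes 16 fell and 12 rose (median -0.87), with fibrillar Col3a1 and Col2a1 among those that rose. Col4a1, a chain of type IV collagen, had 1256, 1468 and 1206 CPM in the 3 NPC samples and 292, 368 and 376 CPM in the 3 neuron samples (log2 change -1.92 ± 0.32, FDR 1.57e-05), against a mean of 10.5 CPM in WT ESCs. Lama1, of laminin, went from 926 ± 109 to 105 ± 14.9 CPM and Hspg2, perlecan, from 1409.5 ± 206 to 154 ± 24.2 CPM. All 3 neuron samples lay below all 3 NPC samples for each of these genes.

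Genes of other cell types were at different levels. In the mesenchyme list 11 of 25 rose and 12 fell. Col3a1, a fibrillar collagen, went from 3.45 ± 0.978 to 205 ± 23.1 CPM (log2 change 5.91 ± 0.19, FDR 2.99e-16), and Lum and Dcn, proteoglycans of fibroblasts, rose to 0.731 and 11.7 CPM. Col1a1 and Col1a2, the chains of type I collagen, fell from 28.7 ± 4.26 to 17.0 ± 3.92 CPM (log2 change -0.75 ± 0.29, FDR 0.021) and from 26.2 ± 3.09 to 5.84 ± 0.627 CPM (log2 change -2.16 ± 0.81, FDR 0.0196). Without neuron replicate 2 neither passed (FDR 0.0612 and 0.0539), nor did Col1a1 without NPC replicate 1 (FDR 0.07) or neuron replicate 1 (FDR 0.073). The summed level of the mesenchyme list was between 1530 and 1600 CPM in the NPC samples and between 862 and 1100 CPM in the neuron samples. For endothelium and pericytes 11 of 17 fell and 5 rose, with sums between 149 and 158 and between 25.5 and 30.4 CPM. Of the endothelial markers, Pecam1 fell from 74.7 ± 3.51 to 1.55 ± 0.136 CPM, against a mean of 126 CPM in WT ESCs. Kdr rose from 1.11 ± 0.165 to 6.88 ± 0.787 CPM and Cdh5 from 1.18 ± 0.148 to 2.80 ± 0.554 CPM. Muscle genes were 10 of 17 lower and none higher, with sums between 169 and 178 and between 17 and 20.6 CPM. Among microglial genes only 6 of 15 passed the filter, with Aif1, Cx3cr1 and Ptprc below it, and 4 fell. Neural crest genes were 7 of 16 higher and 8 lower. The part of such cells in the neuronal lists was not tested.

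Genes of the primitive streak and posterior axis rose within the neuron samples. In the list of mesoderm and streak genes 15 of 20 rose and 3 fell, with a median of 1.97. T, or Brachyury, of the streak and the notochord, had 0.541, 0.438 and 0.375 CPM in the 3 NPC samples and 77.2, 86.4 and 66.7 CPM in the 3 neuron samples (log2 change 7.42 ± 0.24, FDR 3.42e-16). Cdx2, a factor of the caudal embryo and of trophectoderm, went from 3.32 ± 0.274 to 50.7 ± 3.38 CPM (log2 change 3.93 ± 0.19, FDR 8.53e-14). Shh, the ligand secreted by notochord and floor plate, had 0.104, 0 and 0.0600 CPM in the 3 NPC samples and 144, 157 and 158 CPM in the 3 neuron samples (log2 change 11.52 ± 0.47, FDR 9.28e-15). For T and Shh every neuron sample was above 60 CPM and every NPC sample below 1 CPM. Of 14 Hedgehog pathway genes 10 rose and 3 fell (median 0.82), and its target and receptor Ptch1 went from 54.6 ± 1.78 to 121 ± 16.5 CPM (log2 change 1.15 ± 0.18, FDR 5.7e-06). Gli1, another target, fell from 22.9 ± 0.510 to 17.0 ± 2.24 CPM (log2 change -0.43 ± 0.09, FDR 0.000345).

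Of other signalling pathways, Wnt genes rose in 19 of 29 cases and fell in 5 (median 1.58), with Rspo3, a secreted enhancer of Wnt signals, going from 0.140 ± 0.0322 to 15.3 ± 1.29 CPM and Axin2, a feedback target, from 22.5 ± 1.61 to 45.8 ± 1.25 CPM. BMP and TGF-beta genes were 13 higher and 8 lower of 25, and the Nodal antagonist Lefty1 fell from 18.5 ± 1.92 to 2.48 ± 0.986 CPM. Retinoid genes were 10 higher and 7 lower of 20. Crabp1, a retinoic acid binding protein of hindbrain and spinal neurons, went from 27.0 ± 0.971 to 72.2 ± 11.5 CPM, Nr2f1, an orphan receptor of neural patterning, from 1.65 ± 0.390 to 142 ± 6.12 CPM, and Cyp26a1, the enzyme that degrades retinoic acid, from 11.4 ± 0.484 to 2.77 ± 0.335 CPM. FGF and EGF genes were 11 higher and 10 lower of 28. The list of activity and cAMP responsive genes, read here because the medium of the neurons held cAMP, had 14 of 24 higher and 7 lower, with Bdnf, a neurotrophin induced by activity, going from 0.947 ± 0.209 to 8.21 ± 0.504 CPM and Arc, an immediate early gene on chromosome 15, from 31.2 ± 3.98 to 5.62 ± 0.693 CPM. Other defining members of this list went both ways. Vgf and Fos rose (log2 change 4.73 ± 0.49, FDR 1.83e-08 and 0.43 ± 0.15, FDR 0.0118). Egr1 and Crem on chromosome 18 fell (log2 change -1.19 ± 0.23, FDR 7.15e-05 and -0.30 ± 0.11, FDR 0.0167). Nr4a1 on chromosome 15 also fell (log2 change -2.03 ± 0.20, FDR 1.16e-08). The effect of cAMP itself cannot be told apart from that of the step.

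Of 23 glycolysis genes 16 fell and 3 rose (median -0.71). Slc2a3, a glucose transporter of the pluripotent state and of neurons, went from 2463 ± 54.0 to 283 ± 26.5 CPM (log2 change -3.12 ± 0.15, FDR 8.29e-14), while Eno2, the neuronal enolase, rose from 26.1 ± 0.521 to 87.0 ± 10.0 CPM. Gapdh, Eno1 and Pgam1 have near-identical copies and were not read one by one. Among 24 interferon and MHC class I genes 16 fell and none rose (median -1.91), with B2m, the light chain of MHC class I, going from 137 ± 13.7 to 21.9 ± 2.17 CPM and Bst2, an interferon-induced antiviral protein, from 269 ± 20.6 to 5.60 ± 0.425 CPM. Imprinted genes were 9 higher and 3 lower of 19. Peg3, a paternally expressed zinc finger gene, went from 135 ± 12.7 to 891 ± 18.2 CPM (log2 change 2.72 ± 0.24, FDR 1.29e-09), and Ndn, the neuronal growth suppressor necdin, from 15.4 ± 0.566 to 434 ± 14.9 CPM.

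Genes with a long genomic span rose more often than short ones, a property the lists did not use. The 4294 genes under 10 kb had a median log2 change of -0.11, with 35.1% higher and 41.8% lower, and the 5194 genes of 10 to 30 kb a median of -0.13. It was 0.07 for 4514 genes of 30 to 100 kb and 0.61 for 1780 genes of 100 to 300 kb. Of 530 genes over 300 kb, 430 were higher (81.1%) and 51 lower (9.62%), with a median of 3.10, and 338 (63.8%) rose at least 4-fold. Without chromosome 15 the median of the longest genes was 3.13. Csmd1, a membrane protein of neurons that was at least 461-fold higher, is in this class, and the part of span apart from such function was not tested. No test was made over the classes.

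**Figure D3:**
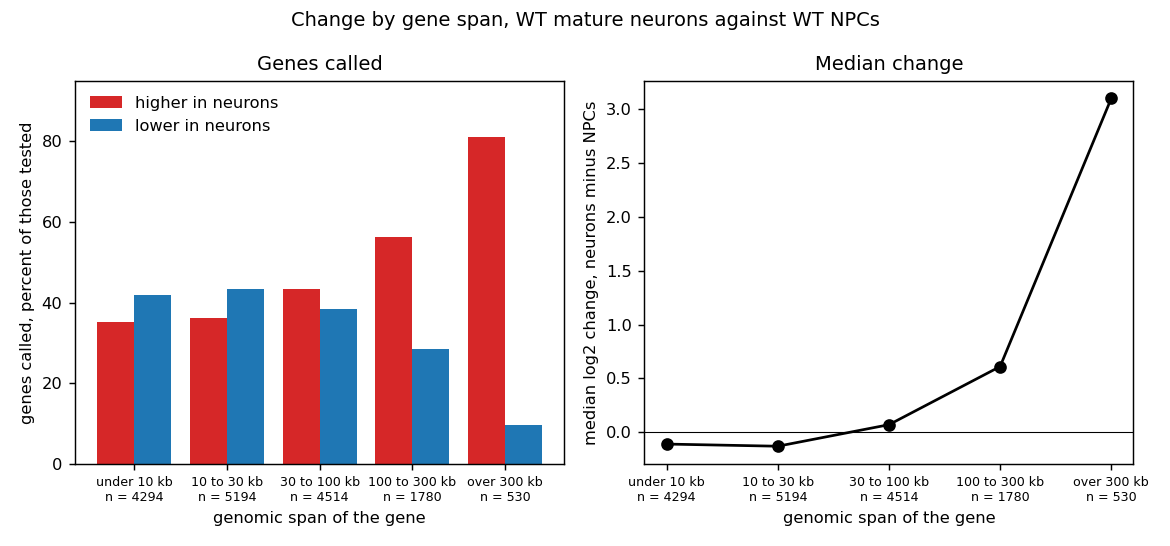
Percentage of genes called higher and lower in neurons (left) and median log2 change (right) by genomic span of the gene in GRCm38, in 5 classes. The share called higher goes from 35.1% under 10 kb to 81.1% over 300 kb.

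Genes of chromosome 15 shifted together at this step in WT cells. Of 639 tested, 365 were lower (57.1%) and 193 higher (30.2%), with a median log2 change of -0.562, while the medians of the other autosomes and of X ran from -0.153 on chromosome 17 to 0.310 on chromosome 18. Set against WT ESCs and against all other chromosomes of the same library, the median of 548 chromosome 15 genes was 0.009, 0.057 and 0.027 in the 3 WT NPC samples and -0.651, -0.613 and -0.637 in the 3 WT neuron samples. The WT ESC samples lay between -0.018 and 0.037 and the WT PSA-NCAM samples between -0.047 and -0.037, so the WT neurons stood apart from every other WT stage. All 12 slow/slow samples lay between -0.699 and -0.594, ESCs included. In windows of 20 Mb along the chromosome the median ranged from -1.11 to 0.23, negative in 5 of 6. On X the medians were 0.305, 0.243 and 0.244 in NPCs and 0.599, 0.619 and 0.604 in neurons. DNA of these samples was not measured. The study's methods report karyotyping of the WT and slow/slow ESCs, with the same chromosome number in each, and name no later stage. The state of the cultured line and the stage cannot be told apart here.

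**Figure D4:**
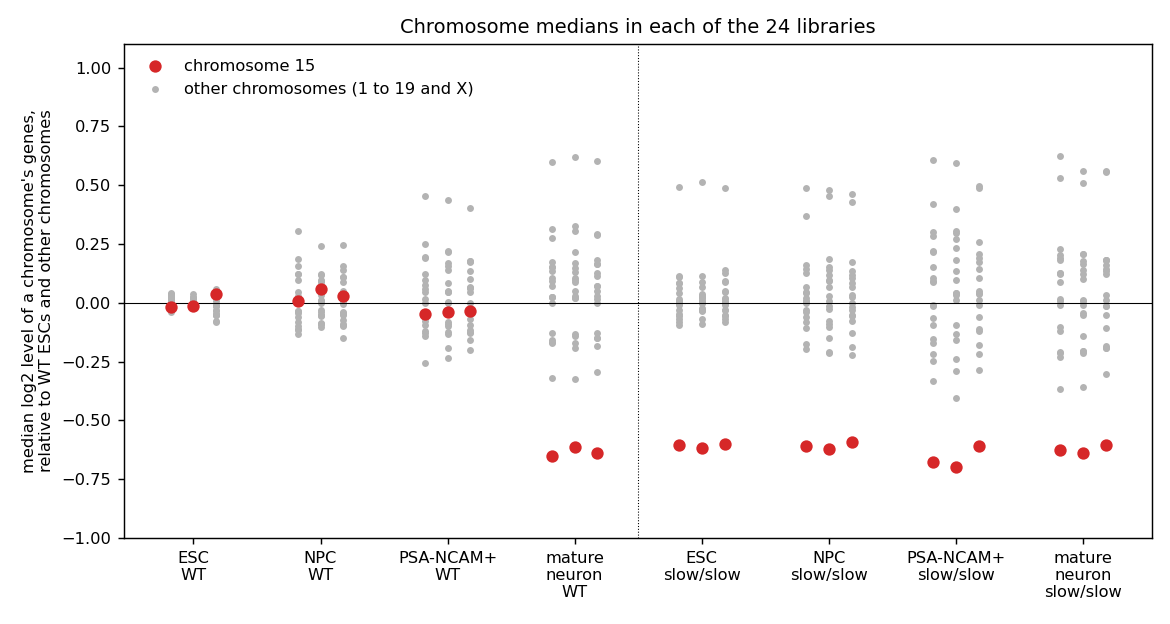
Median log2 level of the genes of each chromosome in all 24 libraries, relative to WT ESCs and to the other chromosomes of the same library, with chromosome 15 in red and the others in grey. Chromosome 15 lies near 0 in WT ESC, NPC and PSA-NCAM samples and between -0.699 and -0.594 in the 3 WT neuron samples and all 12 slow/slow samples.

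Several listed genes lie on chromosome 15, among them Slc1a3, Sox10, Krt8, Krt18, Myc, Tuba1a, Arc and 9 Hoxc genes, and their changes include whatever moved the chromosome. Slc1a3, Tuba1a and Myc were higher in neurons although their chromosome was lower. Without all chromosome 15 genes, which was chosen after seeing the data, 12778 genes were called, 6683 higher and 6095 lower, so the balance of the step moved from 51.6% to 52.3% of called genes higher.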

How the data were processed

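Poly(A)+ RNA was sequenced from 24 samples in 8 groups of 3. The authors demultiplexed reads with bcl2fastq 2.17.1.14 and, per the study's methods, counted reads per gene with vast-tools on mouse build mm9, and the deposited table holds these raw read counts for each sample. Whether counting used the strand of the library is not stated, so overlapping genes may share reads. Of the genes given with values, Chat, Hoxa2, Rsl24d1, Syt1 and Tubb3 overlap another gene on their own strand, and Actl6a, B2m, Ccnd1, Col4a1, Dnmt3l, Folr1, Gli1, Kcnj13, Lrrn3, Pcdh11x, Ptbp1 and Syn1 on the other strand. The table also holds the authors' mean RPKM per group, used here only to compare levels between genes, and the authors' own log2 changes and FDR values for slow/slow against WT cells within a stage, which were not used.

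Of 22667 genes listed, 21553 had counts. Those that passed edgeR's filterByExpr, 16627 (77.1%), were tested with edgeR 4.0.16 in R 4.3.3 (TMM scaling, glmQLFit and glmQLFTest, Benjamini-Hochberg FDR under 0.05) over all 24 samples with 8 group means, giving 16 residual degrees of freedom and a biological coefficient of variation of 0.164. Alternatives were DESeq2 1.42.0, its size factors, upper-quartile scaling, other filters, fewer samples, a replicate block and each replicate left out. Positions, spans and overlaps come from GENCODE vM21 on GRCm38, matched by gene ID for 20451 genes (94.9%), and no coordinate of the mm9 files was used.

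The 53 gene lists (1086 of 1098 genes matched) and the choice of this comparison were made with earlier results of these data known. Named were the 12 largest rises and 12 largest falls among called genes with at least 5 CPM in the higher group and no overlap of samples, the defining members of each list, and up to 4 further called members with the largest change. List members that went against their list, Rest, Ptbp2 and the posterior Hox genes were named after their values were seen. Counts of 3 or fewer in every sample of a group were set at 3 counts per library for a lower bound of the fold, which covers counting error only. Values of some listed genes are not reported here.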

Additional observations from a re-analysis of the deposited data

Results flagged for a closer look

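Among the 12 largest rises and 12 largest falls of the WT step, 21 changed by a different amount in slow/slow cells, tested as the difference of the steps in edgeR (FDR under 0.05, which 55.1% of all genes passed). In log2 units, WT minus slow/slow, the difference was 7.07 for Gria2, 6.96 for Ncam2, 7.36 for Csmd1, 4.09 for Slitrk1, 4.41 for Otp, 3.82 for Dcx, 6.74 for Pcdh11x, 3.93 for Lrrn3 and 6.46 for Hs3st2. Among the falls it was -4.33 for Stra8, -6.51 for Rbm44, -4.75 for Tcl1, -3.04 for Gm7325, -5.68 for Dmrtc2, -6.17 for Rsl24d1, -3.64 for Dppa5a, -3.53 for Ooep, -3.0 for Dmrt1, -5.89 for Gm949, -6.23 for Lrrc31 and -7.25 for Asb9. These genes were chosen for large WT changes, so a larger change in WT cells is favoured by the choice, and where a group has 3 counts or fewer the size of the difference depends on the prior count. Lingo2, Pcdhb9 and Vip did not pass.

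The levels behind the differences varied. Dcx went from a mean of 0.247 to 1118 CPM in WT cells and from 2.94 to 983 CPM in slow/slow cells, so the neurons were close and the NPCs apart. Gria2 went from 0 to 105.7 CPM in WT and from 0.134 to 47.5 CPM in slow/slow cells, and Csmd1 from 0 to 23.5 and from 0.0577 to 4.49 CPM. Stra8 fell from 138 to 0.0919 CPM in WT and from 33.1 to 0.430 CPM in slow/slow cells. Asb9, on X, had 5.25 CPM in WT NPCs and 0.0173 CPM in slow/slow NPCs, and both slow/slow groups were near 0. Slitrk1 no longer passed under upper-quartile scaling (4.01, FDR 0.0571) or with the replicate block (4.10, FDR 0.0579).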

How the results depend on the processing

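Across the alternatives that kept the FDR threshold alone, between 12206 (only genes of at least 1 CPM) and 14296 (only the 6 samples) genes were called, against 13336. DESeq2's Wald test called 13346. Requiring at least a 2-fold change left 8760 genes, 4457 higher and 4303 lower. Upper-quartile scaling moved the median of all genes by -0.27, called 5710 genes higher and 7787 lower (42.3% higher against 51.6%), and gave chromosome 15 a median of -0.838. The medians that turned negative under it included those of chromosomes 1 (-0.091), 2 (-0.102), 5 (-0.082), 6 (-0.073), 12 (-0.164) and 16 (-0.119), and of cholesterol synthesis genes (0.23 to -0.04). Leaving out each replicate gave 12910 to 12973 called genes, 6552 to 6689 higher and 6257 to 6366 lower, 50.7% to 51.6% higher and chromosome 15 medians of -0.599 to -0.561, and 12336 genes (92.5%) were called in all 6 of these fits. Same-numbered NPC and neuron samples did not deviate together (correlations -0.02, -0.0241 and -0.0104). Such values cannot show whether samples of the same number came from the same experiment. With a replicate block 13426 genes were called, 6905 higher and 6521 lower, and within the 6 samples alone the block gave 14213. Of 407 named genes 363 kept their direction and their side of the threshold in every alternative. Lin28a, not called here, passed under 9 alternatives, and Rfc3 lost its call under most. Among the called genes of these 407, 14 lost the call without some replicate, Gfap and Hoxa5 among them. Depth limits the genes below the count filter, which were not tested, and those at or under 3 counts in a group, whose folds are lower bounds, and it widens the error of other low genes.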

Other observations

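Writers and erasers of DNA methylation were divided, with 5 of 14 higher, 5 lower and a median log2 change of -0.17. Dnmt3b, a de novo methyltransferase of the epiblast, fell from 258 ± 1.94 to 90.7 ± 12.1 CPM, and Tet1, the dioxygenase of pluripotent cells, from 289 ± 14.3 to 64.2 ± 0.780 CPM (log2 change -2.17 ± 0.17, FDR 2.07e-10). Tet3, its neural relative, went the other way, from 40.4 ± 2.99 to 177 ± 4.82 CPM (log2 change 2.13 ± 0.11, FDR 3.2e-13). Dnmt1, the maintenance enzyme, had 297 ± 12.2 CPM in NPCs and 258 ± 9.25 CPM in neurons (log2 change -0.20 ± 0.14, FDR 0.199), and Uhrf1, its partner at replicated DNA, fell from 452 ± 18.1 to 129 ± 15.5 CPM.

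Choroid plexus and ciliated ependyma genes were 8 higher and 5 lower of 15. Foxj1, the factor of motile cilia, rose from 9.39 ± 1.2 to 40.2 ± 0.845 CPM (log2 change 2.10 ± 0.49, FDR 0.000599), while Folr1, a folate receptor of choroid plexus and other epithelia, fell from 71.2 ± 2.86 to 5.13 ± 0.984 CPM, and Kcnj13, a channel of choroid plexus, had 0.151 ± 0.0396 CPM in NPCs and 0.0480 ± 0.0287 CPM in neurons (log2 change -1.71 ± 0.80, FDR 0.056). Targets of p53 were 6 higher, 6 lower and 8 not called of 20, with Ccng1 going from 367 ± 27.1 to 699 ± 44.3 CPM and Mdm2, the ligase that limits p53, from 228 ± 9.26 to 109 ± 5.46 CPM. Cholesterol synthesis genes were 10 higher and 6 lower of 21. Idi1, an isomerase of the pathway, rose from 93.0 ± 6.10 to 174 ± 4.45 CPM (log2 change 0.90 ± 0.12, FDR 9.02e-07), and Mvd, a decarboxylase, fell from 92.2 ± 3.26 to 50.8 ± 1.41 CPM (log2 change -0.86 ± 0.14, FDR 9.08e-06).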
